A study of Mus musculus with 60 samples.

Results

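The 69 genes described here had a strong daily rhythm in mouse kidney that peaked by day, for a few of them shortly after lights off, and was of similar size and time in control and cKOt mice. They were selected on their measured rhythm in both genotypes. A cosine of 24 h was fitted to log2(CPM + 0.5), where CPM is a gene's count per 1000000 counts on genes, over the 30 samples of each genotype. A gene was kept if its mean was at least 2 CPM, if its peak-to-trough difference was at least 0.6 log2 units and the cosine held at least 0.3 of the variance (R2) in both genotypes, if the cKOt amplitude was 0.7 to 1.43 times that of control mice, if the peaks lay within 2 h of each other, and if the control peak fell from ZT2 to ZT14 (zeitgeber time in hours, with light on at ZT0 and off at ZT12). Of 55335 gene lines, 12551 reached the minimum level, 191 of these had the peak-to-trough difference in both genotypes, 145 also had the R2, 123 the amplitude ratio, 108 the time difference, and 69 the daytime peak. All 69 also passed the filter of the tests, which 15546 genes passed. Because the rhythm chose the genes, peak-to-trough differences, peak times, R2, amplitude ratios and time differences are given as a description, with no test. Tests were made of the difference between genotypes in the mean level over the 6 time points, which the rule did not use (it used only the overall mean, as a minimum), and of the shape of the course beyond the 24 h cosine, which it used only through the minimum of R2.

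The mice were littermate males on the C57BL/6J background, kept in 12 h of light and 12 h of dark with food at will. Control mice carried floxed Bmal1 alleles alone (Bmal1lox/lox), and cKOt mice also carried Pax8-rtTA and LC-1 Cre, in which doxycycline switches on the Cre recombinase in cells that use the Pax8 promoter, which is active along the renal tubule. Both genotypes drank doxycycline at 2 mg/ml with sucrose at 20 mg/ml for 2 weeks from the age of 8 weeks, and kidneys were taken 4 weeks later at ZT0, ZT4, ZT8, ZT12, ZT16 and ZT20, from 5 mice of each genotype at each time. The labels name the tissue as renal tubule, whereas the methods of the study describe pieces of whole kidney, in which glomerular, vascular and interstitial cells keep their Bmal1. The markers fitted the latter: podocyte markers summed to 300 to 435 CPM in control mice and endothelial markers to 360 to 475 CPM, beside 10392 to 14276 CPM for proximal tubule markers. In such bulk samples, fewer cells of a type and less RNA per cell cannot be told apart.

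Bmal1 (Arntl) and Clock form the activator of the circadian clock, which binds E-boxes and drives its own repressors, among them the period and cryptochrome genes and the nuclear receptors REV-ERB alpha and beta. A daily rhythm in an organ can come from this oscillator in its own cells, or from signals that reach the organ over the day, such as feeding, hormones and body temperature. In the kidney, many transport, metabolic and signalling genes are known to follow the time of day.

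Arntl, the targeted gene, was checked first. In control mice its mean was 47.4 ± 10.6 CPM at ZT0, 2.68 ± 0.767 CPM at ZT8, 2.66 ± 1.52 CPM at ZT12 and 45.1 ± 4.49 CPM at ZT20 (SD, n = 5). In cKOt mice it lay between 17.6 ± 1.66 CPM at ZT12 and 25.1 ± 2.11 CPM at ZT0. Its peak-to-trough difference was 4.58 log2 units in control and 0.50 in cKOt mice. These counts cover the whole gene and do not read the deleted part alone, so the flat course, and not the level, sets the genotypes apart. Libraries held 17791420 to 20906706 counts on genes, and the lowest count of a member in a library was 15. RNA integrity numbers were 7.9 to 9.6, with medians of 9.35 in control and 9.3 in cKOt mice and of 9.25 to 9.4 by time point. The library marked for removal in the study's sample table, cKOt ZT16 replicate 4, is deposited and was kept. Without it, 64 of the 69 genes met the rule. CPM values below are per total counts on genes, a scale on which the median of all tested genes lay 0.088 log2 units higher in cKOt mice, whereas fold changes come from the edgeR fit with TMM library sizes, in which that median was 0.012.

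Peak-to-trough differences ranged from 0.60 to 4.07 log2 units in control mice (median 0.82) and from 0.60 to 3.12 in cKOt mice (median 0.81). The median control peak was ZT7.61 and the median cKOt peak ZT7.88. Of the 69 genes, 54 peaked from ZT6 to ZT10 in control kidneys, and in cKOt kidneys 57 did. The cKOt peak was later for 40 genes and earlier for 29, with a median difference of 0.22 h, and under 1 h for 46 genes. The rhythm was larger in cKOt mice for 34 genes and smaller for 35. A difference of at least 1 log2 unit, a doubling from trough to peak, was reached by 16 genes in control mice and by 9 in both genotypes. Another 223 genes had the same control rhythm and peak time but missed a limit in cKOt mice. The 69 genes were spread over 17 chromosomes with no 2 of them within 10 kb, and comprised 64 protein-coding genes, 2 lincRNAs, 2 processed transcripts and 1 lncRNA from a bidirectional promoter.

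**Figure D1:**
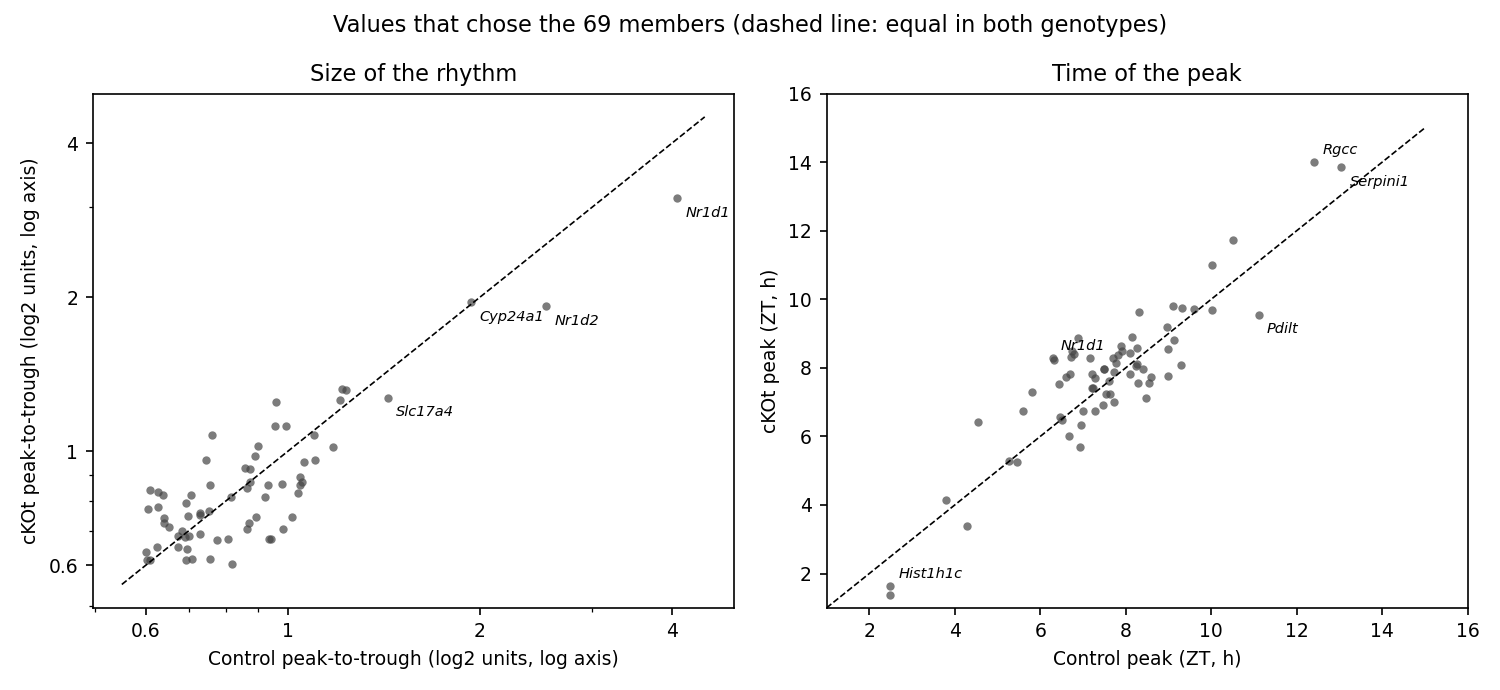
Left, peak-to-trough difference of the fitted cosine in control (x axis) and cKOt (y axis) mice in log2 units on log axes; right, its peak time in hours of zeitgeber time; each point is 1 of the 69 genes and the dashed line marks equal values. These values chose the genes; most points lie near 0.8 log2 units and near ZT8, with Nr1d1 (4.07 and 3.12), Nr1d2 (2.54 and 1.92) and Cyp24a1 (1.94 and 1.96) well apart from the rest in size.

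The only 2 members among 21 genes of the core clock and its outputs were Nr1d1 and Nr1d2, which encode the repressors REV-ERB alpha and beta. Both kept a daytime peak in cKOt kidneys at a much lower mean level. In control mice, Nr1d1 was 63.2, 70.5, 73.7, 80.2 and 81.4 CPM at ZT4 and 2.02, 3.14, 3.57, 3.90 and 7.33 CPM at ZT20. In cKOt mice its highest group was ZT8, at 18.1, 19.8, 22.6, 29.4 and 30.6 CPM, and its lowest ZT20, at 1.42, 2.14, 2.16, 2.22 and 4.80 CPM. The genotypes did not overlap at ZT0, ZT4 and ZT8, where the group means of log2(CPM + 0.5) were lower in cKOt mice by -2.17, -2.57 and -1.03. They overlapped at ZT12, ZT16 and ZT20, where the differences were -0.79, -0.49 and -0.55. The high group exceeded the low group 18.5-fold in control and 9.47-fold in cKOt mice. The fitted peak was ZT6.29 in control and ZT8.28 in cKOt mice, a difference of 1.99 h that lies just inside the limit. The mean level of Nr1d1 was lower in cKOt mice by a log2 fold change of -1.38 ± 0.10 (SE, edgeR quasi-likelihood test, adjusted p = 3.25e-17).

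Nr1d2 stood higher and moved less over the day. Its control values at ZT12 were 229, 250, 252, 258 and 274 CPM, against 45.6, 46.1, 46.3, 53 and 53.1 CPM at ZT20. The cKOt mice had 52.1, 62.4, 62.8, 65.0 and 79.1 CPM at ZT12 and 13.0, 14.4, 16.3, 17.8 and 23.6 CPM at ZT0. Ranges of the genotypes were separate throughout the day, with the cKOt mice lower, and the highest cKOt group lay just above the lowest control group. The log2 fold change was -1.99 ± 0.06 (edgeR, adjusted p = 9.72e-35), the lowest of all 69 genes. Fitted peaks were ZT9.11 and ZT9.81.

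The other clock genes missed a limit in cKOt mice, in the control peak time, or in both. Dbp, the D-box activator, missed only the amplitude ratio, with a peak-to-trough difference of 5.30 log2 units in control and 2.65 in cKOt mice. Bhlhe41, a repressor of E-box transcription, also missed only this ratio, at 0.538. Per1, the period gene known for its response to hormones, missed it narrowly at 0.698 and the time limit at 2.06 h. Per3 went from 2.56 to 1.42 log2 units, Ciart from 4.22 to 1.48 and Tef from 1.51 to 0.43. In the mean level, 7 of the 21 genes were higher in cKOt mice, 11 were lower and 3 did not pass the test. Of all tested genes, 26.8% were higher and 23.2% lower, shares against which the counts of this and the other lists are to be read.

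Promoters are shown for the 2 REV-ERB genes and for 4 members that held the letters of an E-box, a FOXO element or a heat shock repeat, because these are the sites through which the clock, insulin signalling and temperature are known to act. The windows run from 250 bases before to 50 after the RefSeq start, 5′ to 3′ on the strand of the gene, in the build GRCm38.p6. Capitals mark every match on either strand to the E-box CACGTG, the E-box-like CACGTT (read on the other strand as AACGTG), the FOXO element TGTTTAC, the heat shock inverted repeat GAANNTTC, the nuclear receptor element AGGTCA and the glucocorticoid receptor element AGAACA. Nr1d1 lies at chr11:98775328-98775627 on the minus strand, Nr1d2 at chr14:18239057-18239356 on the minus strand, Dgkg at chr16:22657182-22657481 on the minus strand, Coro6 at chr11:77463661-77463960 on the plus strand (the second of its starts), Pnpla7 at chr2:24975783-24976082 on the plus strand and Depp1 at chr6:116650434-116650733 on the plus strand.
Nr1d1: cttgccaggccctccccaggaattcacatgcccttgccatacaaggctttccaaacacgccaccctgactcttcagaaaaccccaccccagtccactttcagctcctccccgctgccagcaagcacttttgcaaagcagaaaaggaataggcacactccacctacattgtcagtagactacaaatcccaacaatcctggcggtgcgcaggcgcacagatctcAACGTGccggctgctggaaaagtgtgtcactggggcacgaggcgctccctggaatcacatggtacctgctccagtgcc
Nr1d2: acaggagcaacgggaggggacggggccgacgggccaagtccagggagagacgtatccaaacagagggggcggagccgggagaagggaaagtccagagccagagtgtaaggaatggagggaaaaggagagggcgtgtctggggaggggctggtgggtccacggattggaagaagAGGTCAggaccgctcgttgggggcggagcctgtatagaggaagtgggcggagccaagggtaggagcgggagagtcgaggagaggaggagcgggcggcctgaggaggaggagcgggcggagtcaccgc
Dgkg: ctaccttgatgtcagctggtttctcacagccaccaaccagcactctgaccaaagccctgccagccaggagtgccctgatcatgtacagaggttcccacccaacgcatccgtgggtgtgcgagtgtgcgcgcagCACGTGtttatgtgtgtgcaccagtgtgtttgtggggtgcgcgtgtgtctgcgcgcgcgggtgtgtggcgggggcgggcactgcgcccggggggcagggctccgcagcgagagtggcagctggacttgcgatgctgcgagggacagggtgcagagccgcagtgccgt
Coro6: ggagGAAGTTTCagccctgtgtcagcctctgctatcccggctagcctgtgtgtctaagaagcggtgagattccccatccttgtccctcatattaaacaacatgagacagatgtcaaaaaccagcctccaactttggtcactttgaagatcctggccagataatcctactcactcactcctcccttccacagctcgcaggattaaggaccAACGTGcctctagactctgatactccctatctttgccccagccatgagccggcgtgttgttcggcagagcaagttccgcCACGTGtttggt
Pnpla7: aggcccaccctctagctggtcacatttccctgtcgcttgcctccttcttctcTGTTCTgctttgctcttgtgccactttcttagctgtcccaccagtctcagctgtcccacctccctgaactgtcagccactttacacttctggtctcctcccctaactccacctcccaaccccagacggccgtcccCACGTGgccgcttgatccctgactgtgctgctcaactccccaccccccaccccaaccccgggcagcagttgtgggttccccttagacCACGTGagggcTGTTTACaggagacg
Depp1: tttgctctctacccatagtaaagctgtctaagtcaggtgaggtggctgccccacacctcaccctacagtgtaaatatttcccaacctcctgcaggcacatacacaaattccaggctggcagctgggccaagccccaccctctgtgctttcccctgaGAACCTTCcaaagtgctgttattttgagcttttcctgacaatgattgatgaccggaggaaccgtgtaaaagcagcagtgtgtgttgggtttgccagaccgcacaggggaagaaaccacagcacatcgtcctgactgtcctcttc
Of the 69 genes, 49 had a window in the table (56 windows). CACGTG was in 8.93% of their windows against 7.15% of all 32851 windows, in Coro6, Dgkg, Klf11, Pnpla7 and St6galnac3. CACGTT was in 10.7% against 4.68%, in 6 genes that included Nr1d1 and Coro6. For GAANNTTC the shares were 10.7% and 7.86%, for TGTTTAC 3.57% and 3.65%, for AGAACA 10.7% and 19.0% and for AGGTCA 10.7% and 16.3%. The cAMP response element TGACGTCA and the D-boxes TTATGTAA and TTACGTAA were in none of the 56 windows and in 1.79% and 1.06% of all. The shares of TGACG (25.0% and 20.8%), CCAAT (35.7% and 37.4%) and GGAAGT (23.2% and 23.8%) were close to those of all windows. No match says only that these letters are not in the window, and a match is not a site shown to be bound.

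Among membrane transporters, the largest change in mean level was that of Slc17a4, of the sodium phosphate cotransporter family, which carries organic anions. In control mice it was 3.57, 4.07, 4.30, 5.19 and 5.95 CPM at ZT8 and 1.21, 1.33, 1.45, 1.90 and 2.06 CPM at ZT20. The cKOt mice had 10.6, 14.4, 14.7, 15.1 and 16.8 CPM at ZT8 and 4.91, 5.23, 5.32, 6.63 and 7.06 CPM at ZT0. As for Nr1d2, the 2 genotypes were fully separate at all 6 time points, but here the cKOt mice were higher, and the lowest cKOt group reached the range of the control mice at ZT8. The log2 fold change was 1.44 ± 0.08 (edgeR, adjusted p = 2.57e-23), the highest of all 69 genes. Its rhythm was 1.43 log2 units in control and 1.27 in cKOt mice, with peaks at ZT7.76 and ZT8.14.

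Slc6a19 encodes B0AT1, the transporter that takes up neutral amino acids in the proximal tubule, and had the highest level of the 69 genes. The control mice had 418, 463, 505, 517 and 662 CPM at ZT4 and 217, 220, 251, 258 and 258 CPM at ZT16. The cKOt mice had 372, 388, 458, 462 and 548 CPM at ZT8 and 190, 205, 228, 232 and 252 CPM at ZT16. Day and night did not overlap within either genotype, whereas the genotypes overlapped at both. Its mean level was lower by -0.18 ± 0.04 (log2, edgeR adjusted p = 0.000517). It was the only member among 26 genes of amino acid and organic solute transport, of which 10 were higher in cKOt mice, 11 were lower and 5 were not called.

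Slc1a2, a glutamate transporter, was lower in cKOt mice by -0.62 ± 0.06 (log2, edgeR adjusted p = 1.11e-13), and the genotypes did not overlap at 5 of the 6 time points. At ZT8 the control mice had 7.70 to 8.65 CPM, and at ZT12, the highest cKOt group, the cKOt mice had 4.63 to 7.55 CPM. Its peak was 2.00 h later in cKOt mice, at the limit of the rule. Kcnt1, a potassium channel gated by sodium, was higher by 0.28 ± 0.07 (log2, edgeR adjusted p = 0.000511), and its highest control group, ZT8, had 21.4 to 36.6 CPM against 32.9 to 44.3 CPM in the highest cKOt group, ZT12. Mfsd7a, a carrier of the major facilitator family, was higher by 0.39 ± 0.06 (edgeR, adjusted p = 1.92e-07). Its relative Mfsd9 was lower by -0.23 ± 0.03 (edgeR, adjusted p = 2.55e-08), and it is named, like other members given here in a clause, after its values were seen. Slc35f3 and Slc25a53, of the nucleotide sugar and mitochondrial carrier families, did not pass the test (log2 fold changes of 0.12 and 0.14, edgeR adjusted p of 0.0542 and 0.099). None of 29 genes of sodium, water and acid-base transport was a member.

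Cyp24a1, the enzyme that inactivates vitamin D hormones, had the third largest control rhythm and the largest standard error of the fold change among the 69 genes. Its control values at ZT8 were 118, 122, 181, 221 and 294 CPM, and those at ZT12 were 24.3, 41.6, 44.1, 45.0 and 61.1 CPM. The cKOt values were 72.7, 87.3, 97.7, 131 and 324 CPM at ZT8 and 5.95, 18.8, 20.8, 47.0 and 67.1 CPM at ZT12. All mice at ZT8 thus lay above all mice at ZT12 in both genotypes, a drop within 4 h at the end of the light phase. The cosine held only 0.395 of the variance in control and 0.308 in cKOt mice, the latter the lowest cKOt value among the members. Its mean level was lower by -0.56 ± 0.19 (log2, edgeR adjusted p = 0.0129), the genotypes overlapped at every time point, and the call did not hold without replicate 1 (-0.45, edgeR adjusted p = 0.0755) or replicate 5 (-0.41, 0.106). The most distant mice were control ZT0 replicate 5 (141 CPM, the others 15.6 to 46.8) and cKOt ZT8 replicate 2 (324 CPM, the others 72.7 to 131).

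Other metabolic enzymes differed in direction. Etnppl, which breaks down phosphoethanolamine, was lower in cKOt mice by -0.69 ± 0.06 (log2, edgeR adjusted p = 9.17e-14). It was 25.3, 25.5, 29.5, 35.6 and 37.7 CPM at ZT12 in control mice and 14.0, 19.3, 23.1, 24.3 and 31.0 CPM in cKOt mice at that time, its highest group in both genotypes. At the low end it was 17.2 to 21.1 CPM at ZT0 in control and 7.51 to 13.7 CPM at ZT20 in cKOt mice. The genotypes did not overlap at ZT0, ZT4 and ZT20 and overlapped at the others. Car9, a carbonic anhydrase (-0.19, edgeR adjusted p = 0.0337), and Azin2, an inhibitor of the antizyme that controls polyamine synthesis (-0.23, edgeR adjusted p = 0.0021), were lower too. The call of Car9 was lost without replicate 1 or 3, without the RUVs factors and with the library batch in their place. Accs was higher (0.14, edgeR adjusted p = 0.00616) except without replicate 2, and Cyp2j9, an epoxygenase of arachidonic acid, was not called (0.01, edgeR adjusted p = 0.937). Pdilt, a relative of protein disulfide isomerase known from testis, was lower by -0.41 ± 0.09 (edgeR, adjusted p = 8.78e-05) at a mean of only 2.56 CPM. It overlaps Acsm5 on the opposite strand, which had 173 CPM and a rhythm of 0.62 log2 units with a peak at ZT8.66, so reads of Acsm5 may be counted in Pdilt if the counting did not use strand.

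Genes of insulin signalling through FOXO factors and of autophagy gave a few members each. FOXO factors are held out of the nucleus by insulin, and autophagy is known to be induced in fasting. Of 23 FOXO and insulin genes, Fbxo32 and Pik3ip1 were members, and of 18 autophagy and lysosome genes, Wipi1 and Depp1. In the mean level, 8 of the 23 were higher in cKOt mice, 5 were lower and 10 were not called, and of the 18 these were 4, 6 and 8. Depp1, a FOXO target linked to autophagy, had a rhythm of 1.21 log2 units in control and 1.26 in cKOt mice. It was 2.51, 5.84, 6.34, 7.56 and 12.6 CPM at ZT8 and 2.11, 2.16, 2.24, 2.24 and 2.38 CPM at ZT0 in control mice. The cKOt mice had 4.99, 6.44, 9.73, 11.0 and 13.4 CPM at ZT8 and 1.37, 1.64, 2.86, 3.99 and 4.27 CPM at ZT0. The mice at ZT8 all lay above those at ZT0 in both genotypes, but were spread over a wide range. Its mean level did not pass the test (log2 fold change 0.11, edgeR adjusted p = 0.493).

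Fbxo32, the ubiquitin ligase subunit atrogin-1, was 4.52, 6.05, 7.26, 7.83 and 8.50 CPM at ZT8 in control mice and 7.36, 7.44, 7.69, 7.79 and 9.34 CPM at ZT4 in cKOt mice. Its mean level was higher in cKOt mice by 0.21 ± 0.07 (log2, edgeR adjusted p = 0.0112), but did not pass without replicate 5 (0.16, 0.0946). Pik3ip1, an inhibitor of PI3 kinase, had the same rhythm in both genotypes, 0.87 log2 units, and was not called (-0.09, edgeR adjusted p = 0.117). Wipi1, which acts in the formation of autophagosomes, had 50.5, 51.5, 54.0, 54.7 and 55.3 CPM at ZT4 and 26.6, 29.1, 34.3, 35.1 and 36.4 CPM at ZT20 in control mice. The cKOt mice had 47.3 to 55.3 CPM at ZT8 and 27.9 to 36.2 CPM at ZT20. The peak-to-trough differences were 0.82 and 0.81 log2 units, and the mean level was lower by -0.09 ± 0.03 (log2, edgeR adjusted p = 0.0183), which did not pass without replicate 3 (-0.05, 0.213), without replicate 5 (-0.08, 0.0845) or with the library batch in place of the RUVs factors (-0.08, 0.0619). Pik3ip1 passed without replicate 1 (-0.13, edgeR adjusted p = 0.0464). Close to these lists in function, Fnip2, a partner of folliculin in nutrient sensing, was lower by -0.40 ± 0.04 (edgeR, adjusted p = 4.12e-11), and Calcoco1, a receptor for the autophagy of endoplasmic reticulum, was higher by 0.09 ± 0.03 (edgeR, adjusted p = 0.0105), except without replicate 2, without the RUVs factors and with the library batch in their place. Among list genes that were no members, Txnip fell short of the peak-to-trough limit in cKOt mice (0.62 and 0.50 log2 units), and Igfbp1 of the amplitude ratio (0.653).

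The cold-inducible RNA-binding protein gene Cirbp, known to follow body temperature, was a member with Rsrp1 among 12 cold-inducible genes. In control mice Cirbp was 19.4, 31.5, 36.2, 36.6 and 38.3 CPM at ZT4 and 14.0, 14.0, 15.5, 19.5 and 21.9 CPM at ZT16. In cKOt mice it was 38.6, 39.1, 39.8, 53.4 and 57.3 CPM at ZT8 and 13.3, 13.4, 22.6, 24.4 and 25.2 CPM at ZT20. The cKOt mice at ZT8 were clear of those at ZT20, whereas 1 control mouse at ZT4 lay within the range of ZT16. Its mean level was higher in cKOt mice by 0.20 ± 0.06 (log2, edgeR adjusted p = 0.00587), a call that did not hold with the library batch in place of the RUVs factors (edgeR, adjusted p = 0.0851), with neither (0.0578) or without replicate 4 (0.15, 0.112). Rsrp1, which encodes a protein rich in arginine and serine, was 297 to 335 CPM at ZT8 and 194 to 239 CPM at ZT0 in control mice, the smallest rhythm among the members at 0.60 log2 units, and was not called (0.03, edgeR adjusted p = 0.616). Rbm3, the other gene of the list known as a cold shock protein, had 0.24 and 0.49 log2 units. Of the 12 genes, 5 were higher in cKOt mice, 1 was lower and 6 were not called. None of 17 heat shock genes was a member, while 3 of them met the same limits with a night peak, and 13 of the 17 were lower in cKOt mice and none was higher, beside 23.2% and 26.8% of all tested genes.

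Dgkg and Tgfbr3l, genes of signalling, were higher in cKOt mice. Dgkg, a kinase that removes diacylglycerol, was 8.58, 9.99, 10.4, 13.0 and 14.1 CPM at ZT4 and 3.58, 4.21, 4.64, 5.05 and 6.58 CPM at ZT16 in control mice. In the cKOt group the values were 17.2, 21.5, 22.1, 23.0 and 23.4 CPM at ZT4 and 9.30, 9.60, 11.0, 12.8 and 12.8 CPM at ZT16. The genotypes did not overlap from ZT4 to ZT16, and its log2 fold change was 0.85 ± 0.07 (edgeR, adjusted p = 1.61e-15). Tgfbr3l, a relative of the TGF beta receptor betaglycan, was higher by 0.37 ± 0.07 (edgeR, adjusted p = 7.14e-06). Erbb3, a receptor tyrosine kinase for neuregulins, was higher by 0.11 ± 0.05 (edgeR, adjusted p = 0.0462), a call that was lost under 11 of 14 alternative settings, with 119 to 179 CPM at ZT4 and 70.4 to 104 CPM at ZT0 in control mice. Coro6, an actin-binding coronin, was higher by 0.51 ± 0.08 (edgeR, adjusted p = 6.57e-07), Ifit1bl1, of an interferon-induced family, by 0.39 ± 0.08 (2.83e-05) and Clec2h, a lectin-like receptor, by 0.23 ± 0.09 (0.0269). The call of Clec2h did not hold without replicate 1 (0.15, edgeR adjusted p = 0.13) or replicate 5 (0.20, 0.0697).

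**Figure D2:**
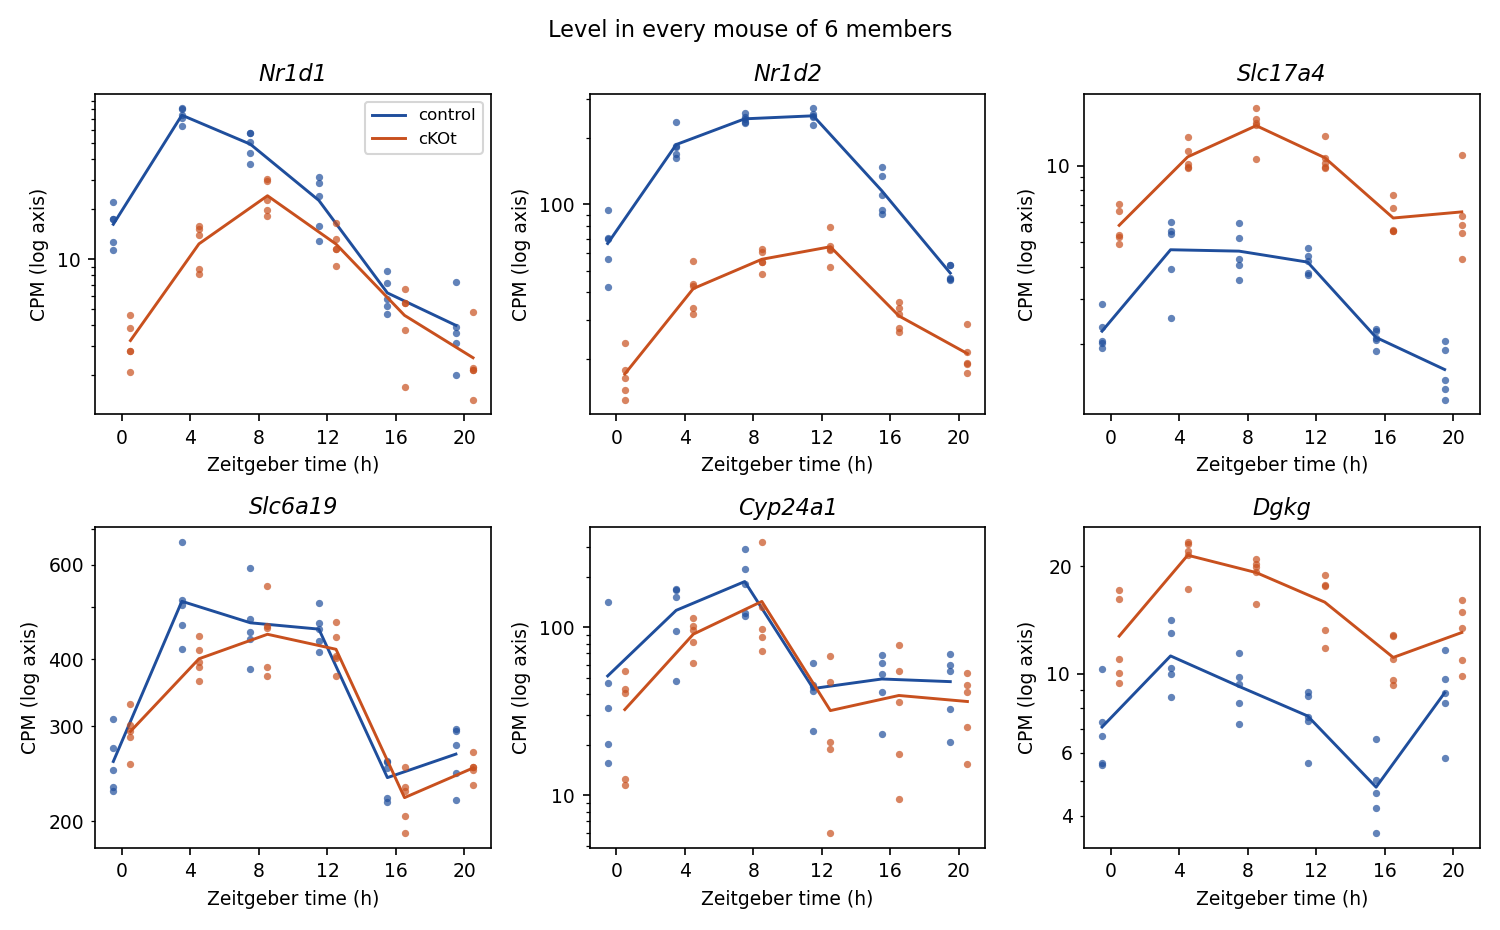
Level of 6 members in every mouse, in CPM on a log axis, against zeitgeber time in hours; each point is 1 mouse (5 per genotype and time point) and the lines join the group means. Nr1d2 and Slc17a4 show the genotypes apart at all 6 time points in opposite directions, whereas the mice of Cyp24a1 overlap at each time.

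Some members are known from cells outside the tubule. Gpihbp1, which carries lipoprotein lipase across the capillary wall, the apelin receptor gene Aplnr and the repressor gene Bcl6b are known from endothelium. Gpihbp1 was 10.3, 11.5, 11.7, 11.8 and 12.1 CPM at ZT12 and 4.78, 5.11, 5.74, 6.53 and 6.57 CPM at ZT20 in control mice, and 7.10, 8.75, 9.50, 10.5 and 14.3 CPM at ZT12 in cKOt mice. Its mean level was lower by -0.16 ± 0.06 (log2, edgeR adjusted p = 0.0141), and that of Aplnr by -0.26 ± 0.08 (edgeR, adjusted p = 0.00631). Without replicate 1 or 4, Gpihbp1 did not pass (-0.14 in both, edgeR adjusted p of 0.0576 and 0.0779), and Aplnr did not without replicate 4. Bcl6b was not called (-0.16, edgeR adjusted p = 0.0644), but was called under 5 of 14 alternatives, with -0.26 (0.00804) without replicate 5. The 6 endothelial markers, none of them a member, were all lower in cKOt mice, with a median log2 fold change of -0.10, and their sum had a rhythm of only 0.065 log2 units in control and 0.024 in cKOt mice. The part of the marker level in the differences of these 3 genes was not tested. Itga8, an integrin of mesangial and interstitial cells, had 1.02 log2 units in control and 0.75 in cKOt mice and was not called (-0.10, edgeR adjusted p = 0.151), and the sum of 7 fibroblast and mural markers had 0.40 log2 units at an R2 of 0.19 in control mice and 0.16 in cKOt mice.

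In the nucleus, Hist1h1c, a linker histone, was lower in cKOt mice by -0.39 ± 0.06 (log2, edgeR adjusted p = 6.45e-08), and Cbx7, a Polycomb protein, was higher by 0.18 ± 0.03 (edgeR, adjusted p = 1.27e-07). In control mice Hist1h1c was 43.8, 49.7, 53.4, 57.0 and 59.9 CPM at ZT8 and 22.5, 26.3, 26.4, 29.1 and 35.0 CPM at ZT12, with no overlap. In cKOt mice its fitted peak was at ZT1.64. The cKOt group means of log2(CPM + 0.5) were highest at ZT8 and ZT4 (0.228 and 0.221 above their mean) and lowest at ZT12 (-0.581). Neil2, a DNA glycosylase of base excision repair, was among the strongest rhythms (1.21 and 1.32 log2 units) and was not called (0.16, edgeR adjusted p = 0.0764), although it passed without replicate 3 (0.21, 0.0361) or replicate 5 (0.21, 0.0364). Klf11, a Krüppel-like factor, was not called either (-0.19, edgeR adjusted p = 0.0815). Rnf212b, a relative of a meiotic RING protein, was higher by 0.33 ± 0.09 (edgeR, adjusted p = 0.00297) and Als2cr12 by 0.36 ± 0.09 (0.000393), both at a mean near 3 CPM, and Rnf212b did not pass without replicate 4 (0.23, 0.0785). Of the noncoding genes, Gm5524 (0.45 ± 0.07, edgeR adjusted p = 5.2e-07) and 9930014A18Rik (0.47 ± 0.07, 3.7e-08) were higher, and Gm36283 was lower (-0.32 ± 0.07, 0.000192). 9930014A18Rik was 4.86 to 5.55 CPM at ZT8 in cKOt mice and 2.98 to 4.51 CPM in control mice, and the genotypes did not overlap from ZT4 to ZT16. Of all 69 genes, 18 overlap another tested gene, 17 of them on the opposite strand, where the counts may mix if strand was not used. For Nr1d1 that gene is Thra (63.6 CPM, control peak ZT2.21) and for Depp1 it is Rassf4 (7.47 CPM, control peak ZT7.64).

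Taking the 69 genes by group mean, day and night were apart. In each genotype, 55 genes had ZT4, ZT8 and ZT12 all above ZT16, ZT20 and ZT0. The highest control group was ZT4 for 27 genes, ZT8 for 28 and ZT12 for 14, and in cKOt mice these were 14, 36 and 19. The median deviation from a gene's mean in control mice was -0.30 log2 units at ZT0, 0.35 at ZT4, 0.33 at ZT8, 0.17 at ZT12, -0.29 at ZT16 and -0.26 at ZT20. In cKOt mice it was -0.24, 0.25, 0.35, 0.27, -0.27 and -0.29 at the same times. The steepest step up was that from ZT0 to ZT4, across the first hours of light, for 59 genes in control and 44 in cKOt mice, with median steps of 0.64 and 0.44 log2 units. The steepest step down was that from ZT12 to ZT16, after lights off, for 44 and 48 genes, with median steps of -0.47 and -0.51. The 5 mice of the highest group all lay above the 5 of the lowest for 63 genes in control and 60 in cKOt mice. The rule asked for a 24 h cosine with a daytime peak. It thereby largely fixes these counts, the split of day and night and the times of the steepest steps.

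**Figure D3:**
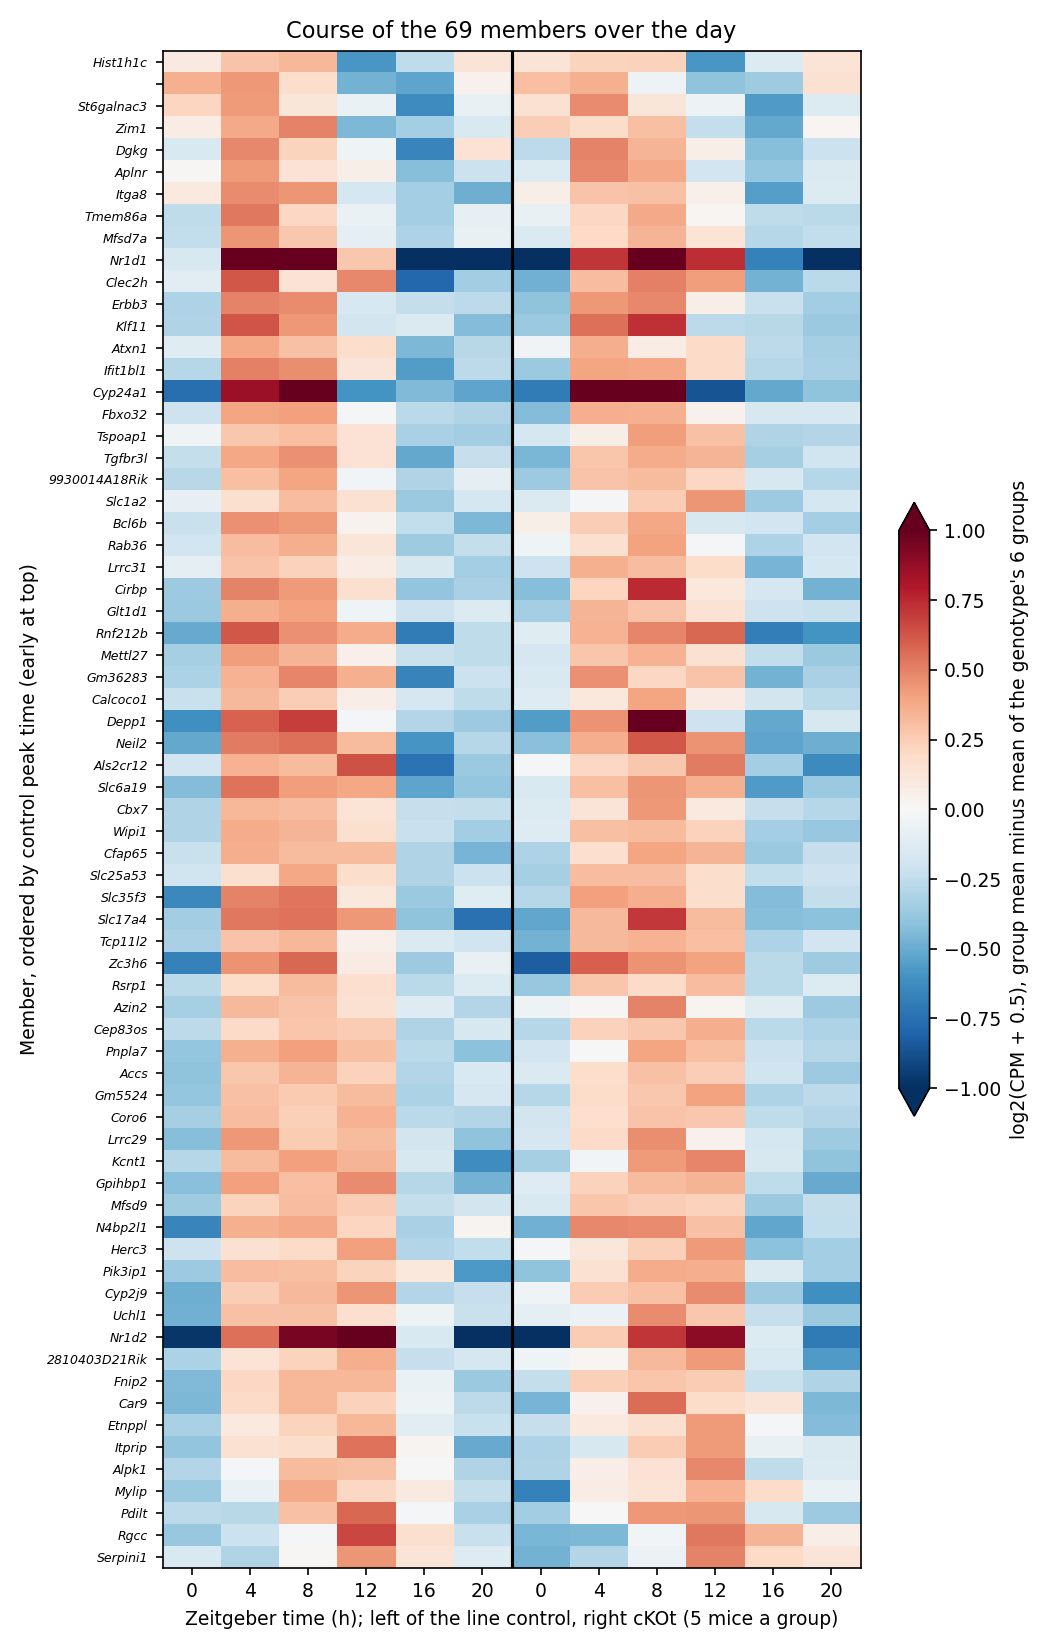
Course of the 69 genes, 1 per row and ordered by control peak time, over the 6 time points of control (left) and cKOt (right) mice; colour gives the group mean of log2(CPM + 0.5) minus the mean of that genotype's 6 groups (5 mice a group). Most rows are high from ZT4 to ZT12 and low from ZT16 to ZT0 in both genotypes, as the rule asks.

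The question of the shape test was whether the course departs from a single cosine of 24 h. It passed for 29 of the 69 genes (42.0%), against 6.55% of all 15546 tested genes. The members were chosen for large rhythms, which most tested genes lack, so the shares are set side by side as a description. Among 39 genes that met the same limits with a control peak outside ZT2 to ZT14 (night genes below), 23 passed (59.0%). For the 29 genes, the part left over by the cosine, averaged over genotypes, had a median of -0.15 log2 units at ZT0, where 25 lay below the cosine, and of 0.09 at ZT4, where 24 lay above it. At ZT20 the median was 0.13, with 27 above. At ZT8 it was -0.02, at ZT12 0.05 and at ZT16 -0.08. For these 29 genes, averaged over genotypes, the step from ZT0 to ZT4 was thus steeper than that of the cosine. The genotypes were not taken apart in these values. Over all 69 genes the median step was larger in control (0.64 log2 units) than in cKOt mice (0.44). Without replicates 1, 3 or 4, the test passed for 17, 19 and 13 members, while 3.04%, 3.88% and 2.45% of all tested genes passed.

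The largest departures were those of Cyp24a1 (root mean square of the 12 h and 8 h terms 0.465 log2 units, edgeR adjusted p = 0.0106), Depp1 (0.317, 0.00587), Zc3h6 (0.263, 0.00243), N4bp2l1 (0.226, 0.00011), Rnf212b (0.22, 0.0301) and Als2cr12 (0.205, 0.00946). The calls of Cyp24a1 and Als2cr12 were lost without replicate 1 or 4, that of Depp1 without replicate 3 and that of Rnf212b without replicate 1, 2, 3 or 4, whereas those of Zc3h6 and N4bp2l1 held under all 14 alternatives. Zc3h6, a zinc finger gene, was 3.27, 4.93, 5.44, 6.34 and 6.38 CPM at ZT0 and 11.5, 11.6, 12.3, 13.5 and 16.7 CPM at ZT8 in control mice. The values in cKOt mice were 3.93 to 7.20 CPM at ZT0 and 14.2 to 19.7 CPM at ZT4. N4bp2l1 was 4.09 to 7.37 CPM at ZT0 and 9.32 to 11.9 CPM at ZT8 in control mice, with no overlap. Nr1d2 passed (edgeR, adjusted p = 0.00617), except without replicate 3 or 4, and Nr1d1 did not (0.16). No member passed the test of a genotype difference in this shape by edgeR, and 0.0129% of all tested genes did. At an unadjusted p under 0.05 there were 12 of the 69 (17.4%), against 6.48% of all tested genes and 3 of the 39 night genes (7.69%). The members were chosen for large rhythms, so these shares too are a description. DESeq2 and limma gave no adjusted call for a member either.

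**Figure D4:**
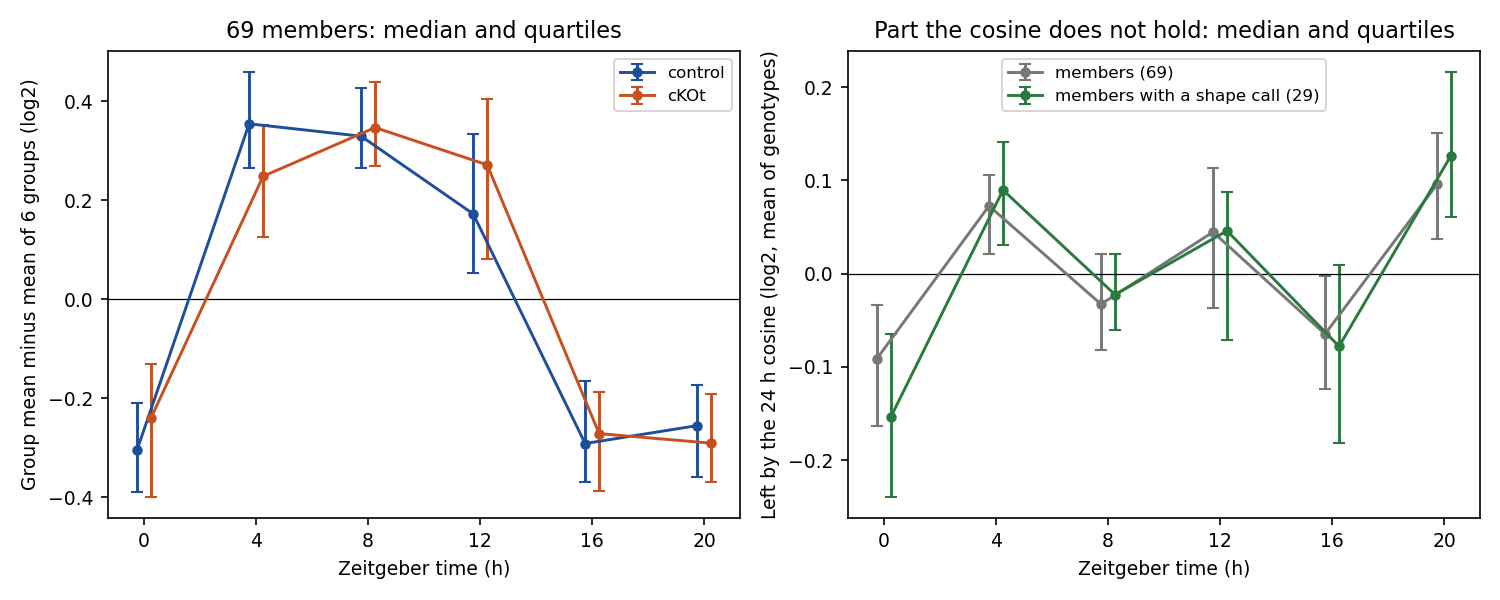
Left, group mean minus the mean of the genotype's 6 groups in log2 units against zeitgeber time in hours, as median and quartiles over the 69 genes in control and cKOt mice; right, the part left over by the 24 h cosine, averaged over genotypes, as median and quartiles for all 69 genes and for the 29 with a shape call. Genes with a call lie below the cosine at ZT0 (median -0.15) and above it at ZT20 (0.13) and ZT4 (0.09).

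The mean level over the 6 time points differed between genotypes for 43 of the 69 genes (62.3%) by the edgeR test, against 50.0% of all tested genes. Of the 69, 24 were higher in cKOt mice (26.8% of all tested genes were) and 19 were lower (23.2% of all), and 26 did not pass. With genes of at least 2 CPM as the base, 54.9% passed, so the share of the members was near the background. The median log2 fold change was 0.027, against 0.012 over all tested genes. The median of its absolute size was 0.186, against 0.101 over all tested genes and 0.089 over those of at least 2 CPM. Called differences of more than 1.5-fold were found for 6 members (8.70%, against 4.82% of all and 3.43% of genes of at least 2 CPM). These were Nr1d1, Nr1d2, Etnppl, Slc1a2, Slc17a4 and Dgkg. With the library batch in place of the RUVs factors, 40 members passed, and 41.3% of all tested genes did. For 29 of the 43 the group means differed in the same direction at all 6 time points on the CPM scale, with its shift described above. This count was not made over all called genes, so it is no comparison with them. No called member took another sign when total counts replaced the TMM scaling, whereas some members that were not called did, among them Pnpla7, N4bp2l1, Uchl1 and Alpk1. Among the 39 night genes 4 were higher and 21 lower in cKOt mice, with a median log2 fold change of -0.18, and the difference from the daytime genes was not tested.

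**Figure D5:**
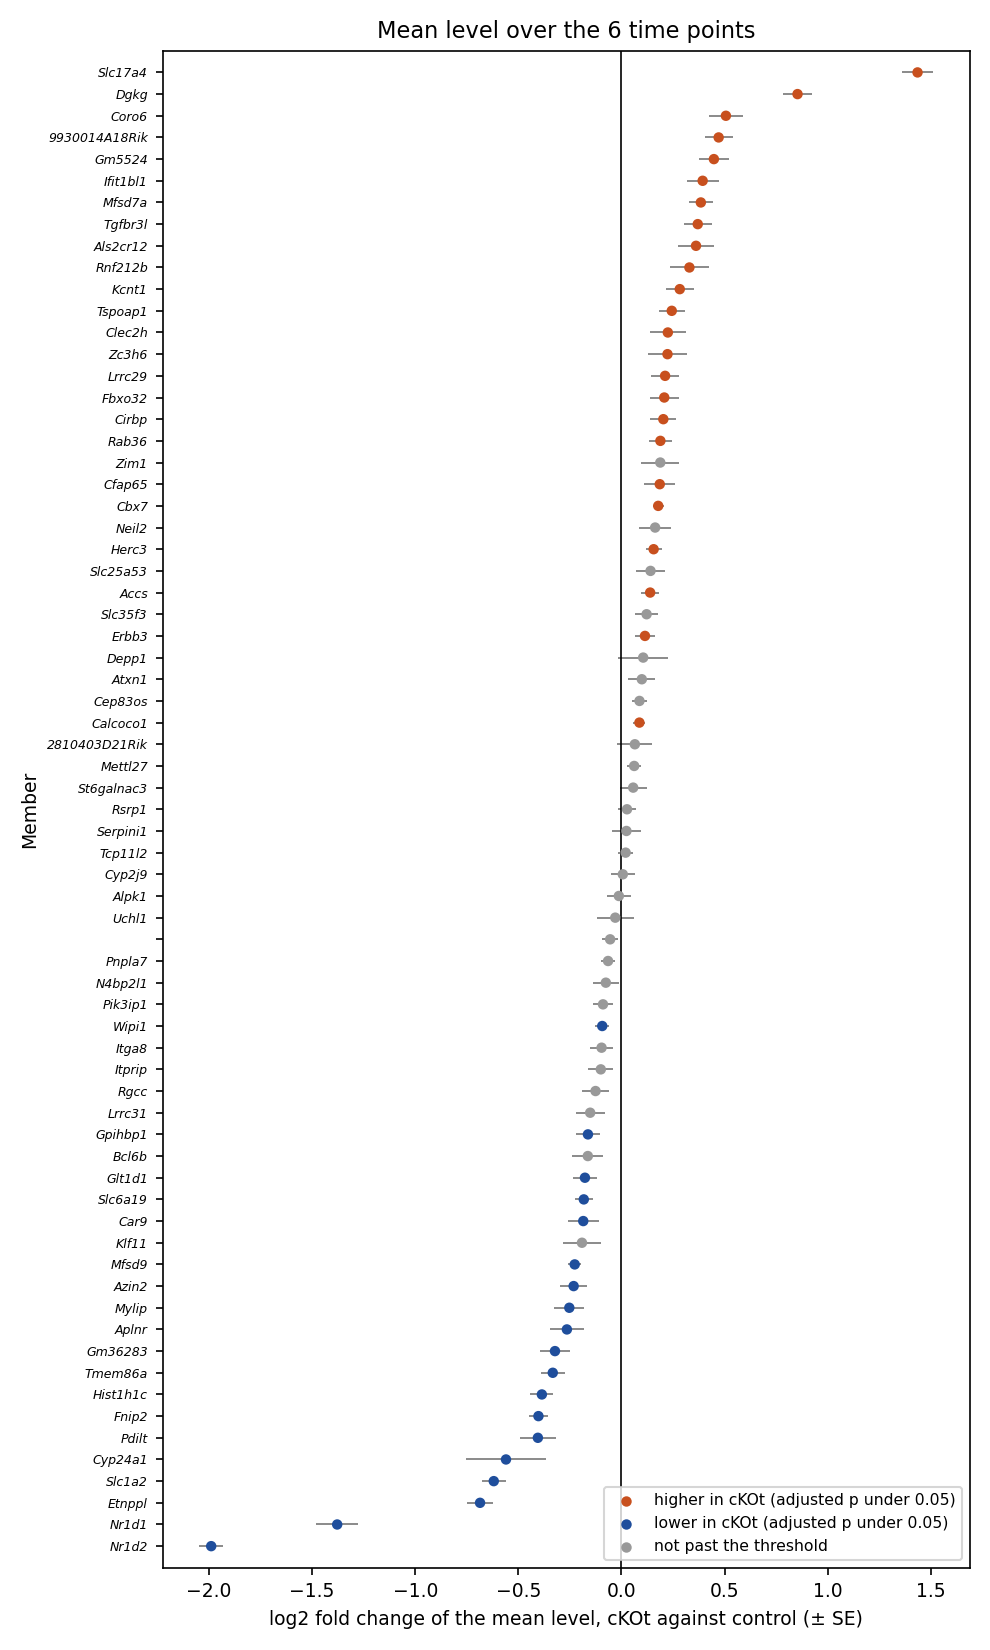
Log2 fold change of the mean level over the 6 time points, cKOt against control, with its SE from the edgeR fit, for each of the 69 genes (30 mice a genotype); colour marks genes higher, lower or not called at an adjusted p of 0.05. The values run from -1.99 for Nr1d2 to 1.44 for Slc17a4, with 24 genes called higher and 19 called lower.

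Lists of genes that respond to other signals of the day gave no member. This held for 24 genes of the glucocorticoid response (5 higher in cKOt mice, 10 lower), 24 PPAR and fasting lipid genes (3 and 13), 15 SREBP and lipogenesis genes (2 and 10), 18 immediate early genes (1 and 4), 22 genes of the unfolded protein and amino acid stress responses (0 and 16) and 19 cell cycle and p53 genes (4 and 10). Of the 22 stress genes, 7 were night genes. Fkbp5, a glucocorticoid target, met all limits but the control peak time, at ZT15.9.

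The limits of the rule cut through a continuous range. Rsrp1 had a smaller peak-to-trough difference of 0.6004 log2 units and Rad18, just outside, 0.595, and 280 genes missed this limit alone. The lowest mean among the members was that of Uchl1 at 2.38 CPM, and Nrap lay outside at 1.97 CPM. For R2 these were Cyp24a1 at 0.308 and Stra6 at 0.248. For the amplitude ratio they were Bcl6b at 0.716 and Gm45104 at 0.672 at the lower limit, and N4bp2l1 at 1.41 and Il5ra at 1.77 at the upper. Slc1a2 had the largest time difference, 2.00 h, before Gm6545 at 2.44 h. The earliest control peak was that of Hist1h1c at ZT2.48, with Tril at ZT1.45 outside, and the latest that of Serpini1, the neuroserpin gene, at ZT13.0.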

How the data were processed

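RNA was sequenced from 60 mouse kidneys, 5 mice of each of 2 genotypes at 6 time points. Libraries were made from poly(A) RNA with a stranded kit, and the authors deposited counts of single reads per Ensembl gene, without normalization or pooling. The submitters' processing notes name bcl2fastq, cutadapt 1.8, STAR 2.5.3a, HTSeq 0.9.1 and GRCm38, and the strand setting of the counting is not given in the sources used here. Each group's 5 mice had been picked out of 6 by the authors on RNA integrity and distance from other replicates, which narrows the spread within groups. Lines of the counting program that name no gene were left out. Of the reads on genes, on no gene and ambiguous together, those on no gene were a median of 8.38% in control and 8.97% in cKOt mice. Symbols came from GENCODE M21 (55154 of 55335 identifiers) and promoters from RefSeq (GRCm38.p6).

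CPM was computed as count over total gene counts, and cosines were fitted to log2(CPM + 0.5). Tests used edgeR 4.0.16 (R 4.3.3) with the quasi-likelihood F test on the 15546 genes that reached 1 CPM in any sample, TMM library sizes (factors 0.908 to 1.07), 12 groups and 2 RUVs factors, which were written anew after the study's methods, with Benjamini-Hochberg adjustment over all genes at 0.05. Alternatives were DESeq2 1.42.0, its size factors, limma 3.58.1, other filters, no RUVs factors, batch, a replicate block and leaving out replicates. The fits were tested on simulated data. The members, gene lists and motifs were chosen with earlier results of these data known. Named are the 12 largest control rhythms, members of the lists, the 8 highest and 8 lowest called fold changes, the 6 largest shape calls and the genes at each limit, and 1 member is not reported here by name. Replicates are separate mice, and no 2 libraries of a group agreed within sampling noise. The 6 library batches, as numbered in the study's sample table, each held both genotypes, but not in equal numbers or at every time point. The cosines of the rule were fitted with no batch term. Residuals of samples in the same batch correlated by a mean of 0.036 over 270 pairs, and those in different batches by -0.0070 over 1380 pairs. Replicate numbers do not pair the mice: residuals of samples with the same number correlated by a mean of 0.0043 over 330 pairs.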

Additional observations from a re-analysis of the deposited data

Results flagged for a closer look

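Dixon's test was applied to CPM in 288 groups of 5 mice, 12 groups for each of 24 members. These were the members with the largest control rhythms or the highest or lowest called fold changes. In 20 groups, 1 mouse lay far from the other 4. The test flags about 1 in 20 groups of independent, normally distributed values. Here the 24 genes share the same mice, which had been picked 5 out of 6, so the number of flags is not compared with that rate. Mice far above the others were cKOt ZT20 replicate 1 for Nr1d1 (4.80 CPM, the others 1.42 to 2.22), control ZT0 replicate 5 for Cyp24a1 (141, the others 15.6 to 46.8), cKOt ZT8 replicate 2 for Cyp24a1 (324, the others 72.7 to 131), control ZT12 replicate 5 for Neil2 (8.87, the others 5.73 to 6.61), for Depp1 (5.24, the others 2.97 to 3.60) and for Pdilt (6.06, the others 3.63 to 4.27), and control ZT16 replicate 1 for Kcnt1 (22.6, the others 17.5 to 18.4). Further high values were those of Ifit1bl1 in control ZT8 replicate 3 (4.51, the others 2.51 to 3.03) and cKOt ZT4 replicate 1 (4.82, the others 3.73 to 4.03), Tgfbr3l in control ZT4 replicate 4 (4.73, the others 2.70 to 3.13), Pdilt in control ZT16 replicate 2 (3.47, the others 2.41 to 2.65) and Fnip2 in cKOt ZT20 replicate 5 (109, the others 72.3 to 81.6).

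Mice far below the others were control ZT20 replicate 2 for Kcnt1 (3.58 CPM, the others 16.7 to 22.0), control ZT12 replicate 2 for Tgfbr3l (1.82, the others 2.85 to 3.09), control ZT0 replicate 5 for Coro6 (2.38, the others 3.42 to 3.81), cKOt ZT4 replicate 5 for Coro6 (4.26, the others 7.59 to 8.91), cKOt ZT8 replicate 3 for Coro6 (4.20, the others 8.47 to 10.1), cKOt ZT8 replicate 2 for Hist1h1c (30.1, the others 40.9 to 42.7), control ZT8 replicate 2 for Etnppl (21.2, the others 29.8 to 30.9) and cKOt ZT20 replicate 1 for Etnppl (7.51, the others 12.3 to 13.7). Control ZT12 replicate 5 was the flagged mouse for 3 genes. No cause was tested.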

How the results depend on the processing

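The rule kept 69 genes, and 42 with a pseudocount of 2 in place of 0.5, a choice that lowers the rhythm of low genes by its construction. Other alternatives kept 52 to 86, without replicates 1 to 5 in turn 58 to 71 (48 to 60 of them among the 69), and 20 of the 69 were kept under all 12 alternatives. Nr1d1 left at a pseudocount of 1 (time difference 2.003 h) or 2, and also without replicate 1 or replicate 2. Slc1a2 and Rsrp1 were each kept under only 4 of the 12 alternatives. The number with a genotype difference in mean level, 43, was 35 to 45 without a replicate (18 to 29 higher, 16 to 20 lower) and 38 to 47 otherwise, while 43.9% to 46.5% and 22.4% to 50.0% of all tested genes passed, the lowest with no filter. The number with a shape beyond the cosine, 29, was 13 to 26 without a replicate, with 17, 19 and 13 without replicates 1, 3 and 4; the cause was not tested beyond the smaller number of samples. Without RUVs factors it was 31 (23 shared with the 29) and with the batch 32 (22 shared), while 16.5% and 19.2% of all tested genes passed. A genotype difference in shape was found for 0 members throughout.

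With the replicate number as a block, 43 members passed in mean level, all shared, and 27 in shape. The numbers pair no mice.

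Of 490 fold changes of 35 named members under 14 alternatives, 458 kept direction and call, 21 lost and 8 gained a call, and 3 changed sign, none of a called member: Uchl1 without replicate 5 (from -0.0628 to 0.00302 without a replicate) and Serpini1 without replicates 1 and 4 (-0.0071 to 0.0733). Calls of Zc3h6 (0.22, edgeR adjusted p = 0.0398) were lost under 7 alternatives, of Wipi1 and Cirbp under 3 each, and of Cyp24a1, Clec2h and Gpihbp1 under 2 each. At this depth the lowest members rest on few counts per mouse.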
